A study of Mus musculus with 8 samples.

Results

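The rod phototransduction cascade was followed through 9 genes, chosen by symbol for their role in turning absorbed light into an electrical signal in rods. All 9 were found among the 24860 genes of the table, and all 9 had a mean over the 8 libraries above the filter of 1 FPKM. They are the rod transducin subunits Gnat1, Gnb1 and Gngt1, the rod phosphodiesterase subunits Pde6a, Pde6b and Pde6g, the rod channel subunits Cnga1 and Cngb1, and the rod arrestin gene Sag. The study compared mouse RNA after AAV2-shCX36, a viral vector carrying a short hairpin RNA against connexin 36, with RNA after AAV2-scramble, the same type of vector with a scrambled hairpin. There were 4 libraries in each group, so both groups carried AAV2 and a hairpin, and the labels name no untreated retina. Connexin 36, encoded by Gjd2, is the main gap junction protein of retinal neurons, and AAV2 injected into the eye is known for reaching mostly the inner retina. The labels call the tissue retina and the cells retinal ganglion cells (RGCs), and they give no strain, age, promoter of the hairpin, time after injection or injury.

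In darkness, cyclic GMP keeps the channels of the rod outer segment open. Light converts the visual pigment to its active form, which switches on transducin, and transducin then releases the inhibitory gamma subunits from phosphodiesterase. Cyclic GMP falls, the channels close and the rod hyperpolarises, after which arrestin binds the phosphorylated pigment and ends its activity. Cones use a parallel set of proteins, most of them encoded by separate genes.

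Values are FPKM, fragment counts scaled for gene length and library size, so a comparison of levels between genes depends on the length used for each. The spacing of low values pointed to roughly 35900000 to 38800000 counted fragments per library, an approximate figure, since the file holds no counts. Each log2 difference subtracts the AAV2-scramble mean of log2(FPKM + 1) from the AAV2-shCX36 mean and has a moderated standard error (SE). Adjusted p-values are Benjamini-Hochberg values from limma over 12858 genes, and a gene was called at an adjusted p under 0.05. The labels do not tie libraries to single animals, so the spread behind each p-value is that between libraries and may be technical. The targeted gene Gjd2 had 17.0, 14.0, 14.6 and 16.6 FPKM in AAV2-shCX36 libraries 1 to 4, against 38.7, 35.9, 17.4 and 18.2 FPKM in AAV2-scramble libraries 1 to 4. Its groups did not overlap, but it was not called (log2 difference -0.70, SE 0.25, limma adjusted p = 0.148, exact permutation p = 0.0286, the smallest that 70 relabellings allow), and AAV2-scramble libraries 3 and 4 lay close to the AAV2-shCX36 libraries. Gjd2 shares exon sequence with A530058N18Rik in the annotation, and its reads may be split or shared with it. AAV2-shCX36 libraries 1 and 4 stood apart by high lens markers, and AAV2-scramble libraries 1 and 2 by high microglia, bipolar and oligodendrocyte markers, so the rod results are also given without them.

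Most of the rod cascade was lower after AAV2-shCX36. Of the 9 members, 5 were called lower and 0 higher (Gnat1, Gngt1, Pde6a, Pde6g and Cngb1), where 2.52% of all tested genes were called lower and 2.24% higher. The log2 difference of all 9 was negative, with a median of -0.67, against a median of 0.01 over all tested genes. In 6 of 9 members every AAV2-shCX36 library lay below every AAV2-scramble library, which held for 7.05% of all tested genes, and in 0 of 9 the reverse, which held for 8.85%. The remaining members were Pde6b, just past the threshold, Cnga1, and Gnb1 and Sag, whose AAV2-shCX36 means were 91.7% and 91.4% of the AAV2-scramble means. In bulk RNA scaled to library size, fewer rods, less RNA per rod and a smaller share of rod material cannot be told apart.

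**Figure D1:**
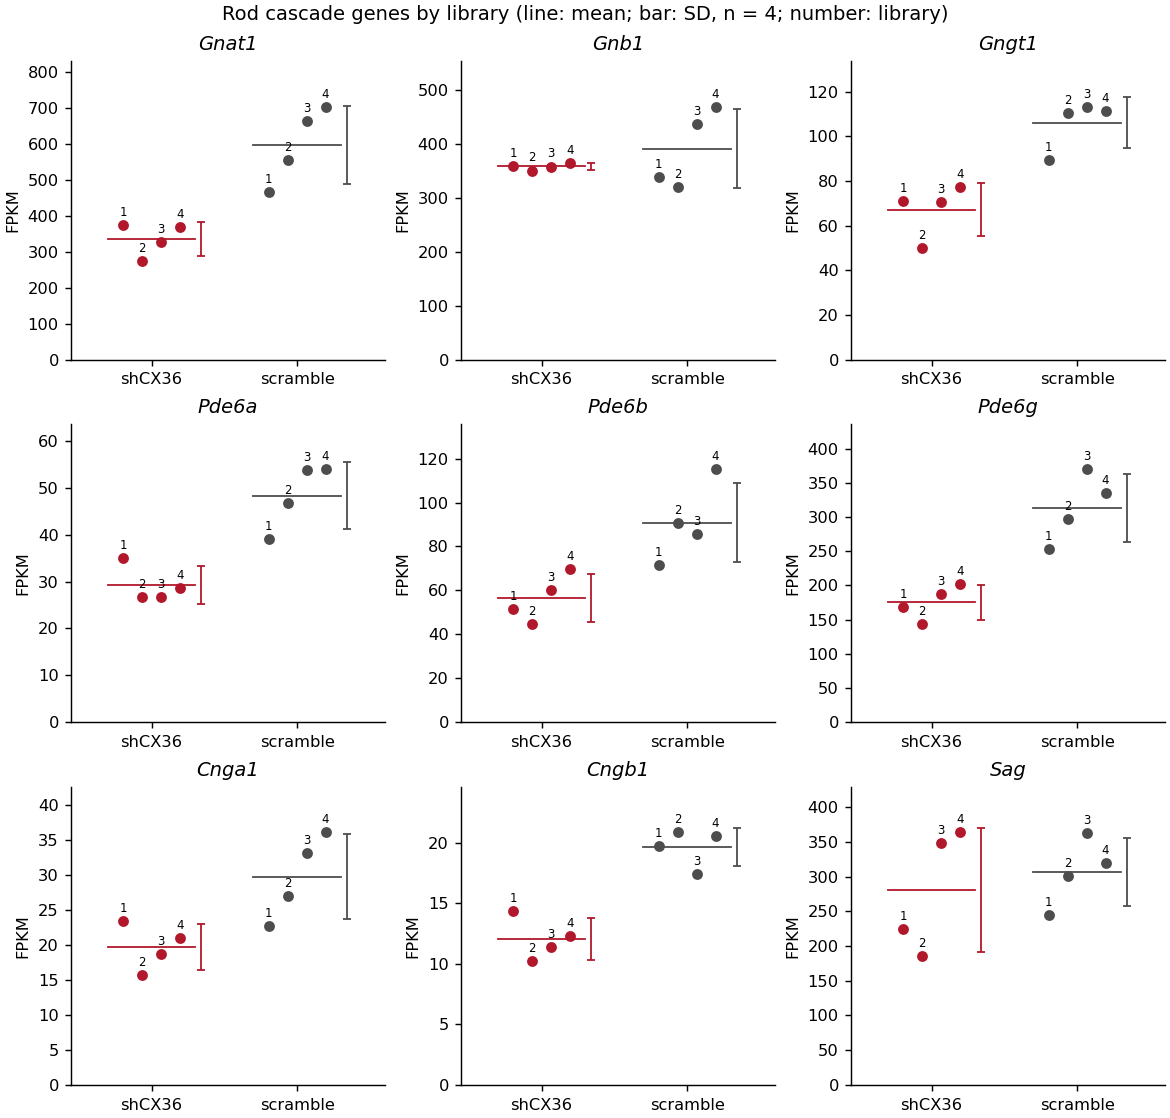
FPKM of the 9 rod cascade genes in each library on linear axes from 0, with AAV2-shCX36 left of AAV2-scramble, numbered points for libraries, lines for group means and bars for the SD (n = 4). The groups are apart in 6 panels and overlap for Gnb1, Cnga1 and Sag.

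Transducin passes the signal from the pigment to phosphodiesterase, and its alpha subunit gene Gnat1 (chromosome 9, 107674474 to 107679712, minus strand, GRCm38) was the most abundant member in AAV2-scramble libraries. Gnat1 had 374, 273, 327 and 369.8 FPKM in AAV2-shCX36 libraries 1 to 4, against 466, 555, 664 and 704 FPKM in AAV2-scramble libraries 1 to 4. All 4 AAV2-shCX36 libraries were below the lowest AAV2-scramble library, and library 2 was the lowest. The mean was 336 ± 47.0 FPKM in AAV2-shCX36 and 597 ± 108 FPKM in AAV2-scramble (SD, n = 4 each), that is 56.2% of the AAV2-scramble mean (log2 difference -0.82, SE 0.15, limma adjusted p = 0.0206). Leaving out library 2 or 3 of AAV2-shCX36, or library 3 of AAV2-scramble, lost the call, with adjusted p up to 0.0647.

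The gamma subunit gene Gngt1 (chromosome 6, 3993792 to 3997436, plus strand), whose product holds the beta subunit at the membrane, had 70.9, 49.95, 70.3 and 77.3 FPKM in AAV2-shCX36 libraries, against 89.3, 110.4, 113 and 111 FPKM in AAV2-scramble libraries. The groups did not overlap, and 3 of the 4 AAV2-scramble libraries were nearly equal while library 1 was lower. Gngt1 fell by 0.66 on the log2 scale (SE 0.14, limma adjusted p = 0.0300), with means of 67.1 ± 11.9 FPKM in AAV2-shCX36 and 106 ± 11.3 FPKM in AAV2-scramble. The call did not hold when library 1 or 3 of AAV2-shCX36, or library 2 or 3 of AAV2-scramble, was omitted, and adjusted p reached 0.0785.

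The beta subunit gene Gnb1 (chromosome 4, 155491361 to 155559269, plus strand) encodes a G protein subunit used by rods and by many other neurons. Gnb1 had 359, 350.3, 358 and 365 FPKM in AAV2-shCX36 libraries, against 338, 319, 436 and 469 FPKM in AAV2-scramble libraries. The AAV2-shCX36 values fell inside the AAV2-scramble range and were close together, with a coefficient of variation of 1.65%, against 18.7% in AAV2-scramble. The difference was within the spread between libraries (log2 difference -0.11, SE 0.12, limma adjusted p = 0.647). Without AAV2-scramble libraries 1 and 2 it was -0.34 and passed the threshold (adjusted p = 0.0143), and without AAV2-scramble libraries 3 and 4 it was 0.12 and did not (adjusted p = 0.240).

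Ratios between the transducin transcripts show how Gnb1 parted from the other subunits. The FPKM ratio of Gnb1 to Gnat1 was 0.961, 1.28, 1.09 and 0.986 in AAV2-shCX36 libraries, against 0.726, 0.575, 0.657 and 0.666 in AAV2-scramble libraries, without overlap. The ratio of Gngt1 to Gnat1 was 0.199 ± 0.015 in AAV2-shCX36 and 0.180 ± 0.019 in AAV2-scramble, a difference of about the size of the spread. These ratios are descriptions and were not tested.

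Phosphodiesterase 6 of rods is made of the catalytic subunits encoded by Pde6a and Pde6b and of inhibitory gamma subunits encoded by Pde6g. Pde6a (chromosome 18, 61220315 to 61289924, plus strand) had 35.1, 26.6, 26.7 and 28.6 FPKM in AAV2-shCX36 libraries, against 39.0, 46.7, 53.8 and 53.9 FPKM in AAV2-scramble libraries. The highest AAV2-shCX36 library, number 1, was below the lowest AAV2-scramble library, also number 1. Pde6a averaged 29.2 ± 3.99 FPKM in AAV2-shCX36 and 48.3 ± 7.10 FPKM in AAV2-scramble (log2 difference -0.70, SE 0.12, limma adjusted p = 0.0175). Omission of library 2 or 3 of AAV2-shCX36, or of library 3 of AAV2-scramble, lost the call, with adjusted p up to 0.0635.

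Pde6b (chromosome 5, 108388391 to 108432397, plus strand) had 51.5, 44.8, 60.3 and 69.5 FPKM in AAV2-shCX36 libraries, against 71.8, 90.5, 85.8 and 115 FPKM in AAV2-scramble libraries. The groups did not overlap, although AAV2-shCX36 library 4 and AAV2-scramble library 1 were close. Pde6b averaged 56.5 ± 10.7 FPKM in AAV2-shCX36 and 90.8 ± 18.1 FPKM in AAV2-scramble, a log2 difference of -0.67 (SE 0.16) that missed the threshold (limma adjusted p = 0.0515). Its size was close to that of Pde6a, and the ratio of Pde6b to Pde6a was 1.96 ± 0.458 in AAV2-shCX36 and 1.88 ± 0.224 in AAV2-scramble. Without AAV2-scramble library 1 it passed, with an adjusted p of 0.0398.

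Pde6g (chromosome 11, 120447605 to 120453500, minus strand) had 169, 143, 187 and 203 FPKM in AAV2-shCX36 libraries, against 253, 297, 369.8 and 334 FPKM in AAV2-scramble libraries. Every AAV2-shCX36 library was below every AAV2-scramble library, and the gap between the nearest libraries was wider than for Pde6a or Pde6b on the FPKM scale. Pde6g averaged 175 ± 25.6 FPKM in AAV2-shCX36 and 314 ± 49.99 FPKM in AAV2-scramble, 55.9% of the AAV2-scramble mean and the largest log2 difference of the 9 members (-0.83, SE 0.14, limma adjusted p = 0.0144). Only the omission of AAV2-shCX36 library 1, among single libraries, moved it past the threshold (adjusted p = 0.0507).

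The cyclic GMP-gated channel of the rod outer segment is built of alpha subunits encoded by Cnga1 and a beta subunit encoded by Cngb1. Cngb1 (chromosome 8, 95239045 to 95306585, minus strand) had 14.3, 10.2, 11.3 and 12.3 FPKM in AAV2-shCX36 libraries, against 19.7, 20.9, 17.4 and 20.5 FPKM in AAV2-scramble libraries. It was the least abundant member in both groups, and the groups did not overlap. Its coefficient of variation was 14.4% in AAV2-shCX36 and 7.87% in AAV2-scramble. Cngb1 averaged 12.05 ± 1.74 FPKM in AAV2-shCX36 and 19.6 ± 1.54 FPKM in AAV2-scramble (log2 difference -0.67, SE 0.10, limma adjusted p = 0.0111). It was the only member called with any single library left out (8 of 8, adjusted p up to 0.0433).

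Cnga1 (chromosome 5, 72603696 to 72644275, minus strand) had 23.5, 15.7, 18.7 and 20.9 FPKM in AAV2-shCX36 libraries, against 22.7, 27.0, 33.1 and 36.1 FPKM in AAV2-scramble libraries. The overlap came from library 1 of each group. Cnga1 averaged 19.7 ± 3.30 FPKM in AAV2-shCX36 and 29.7 ± 6.03 FPKM in AAV2-scramble and was not called (log2 difference -0.56, SE 0.16, limma adjusted p = 0.0805), though it passed without AAV2-scramble library 1 (adjusted p = 0.0434). The ratio of Cnga1 to Cngb1 was 1.63 ± 0.071 in AAV2-shCX36 and 1.53 ± 0.359 in AAV2-scramble, within the spread.

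Sag (chromosome 1, 87803680 to 87845158, plus strand) encodes rod arrestin, also known as S-antigen. Sag had 224, 186, 348 and 364 FPKM in AAV2-shCX36 libraries, against 244, 301, 363 and 319 FPKM in AAV2-scramble libraries. The AAV2-shCX36 group fell into libraries 1 and 2, which were the lowest of all 8, and libraries 3 and 4, which lay among the highest. Its mean of 281 ± 88.9 FPKM in AAV2-shCX36 and 307 ± 49.3 FPKM in AAV2-scramble differed by less than that spread (log2 difference -0.17, SE 0.22, limma adjusted p = 0.686). The FPKM ratio of Sag to Gnat1 was 0.599, 0.681, 1.07 and 0.985 in AAV2-shCX36 libraries, against 0.525, 0.542, 0.548 and 0.453 in AAV2-scramble libraries, without overlap.

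**Figure D2:**
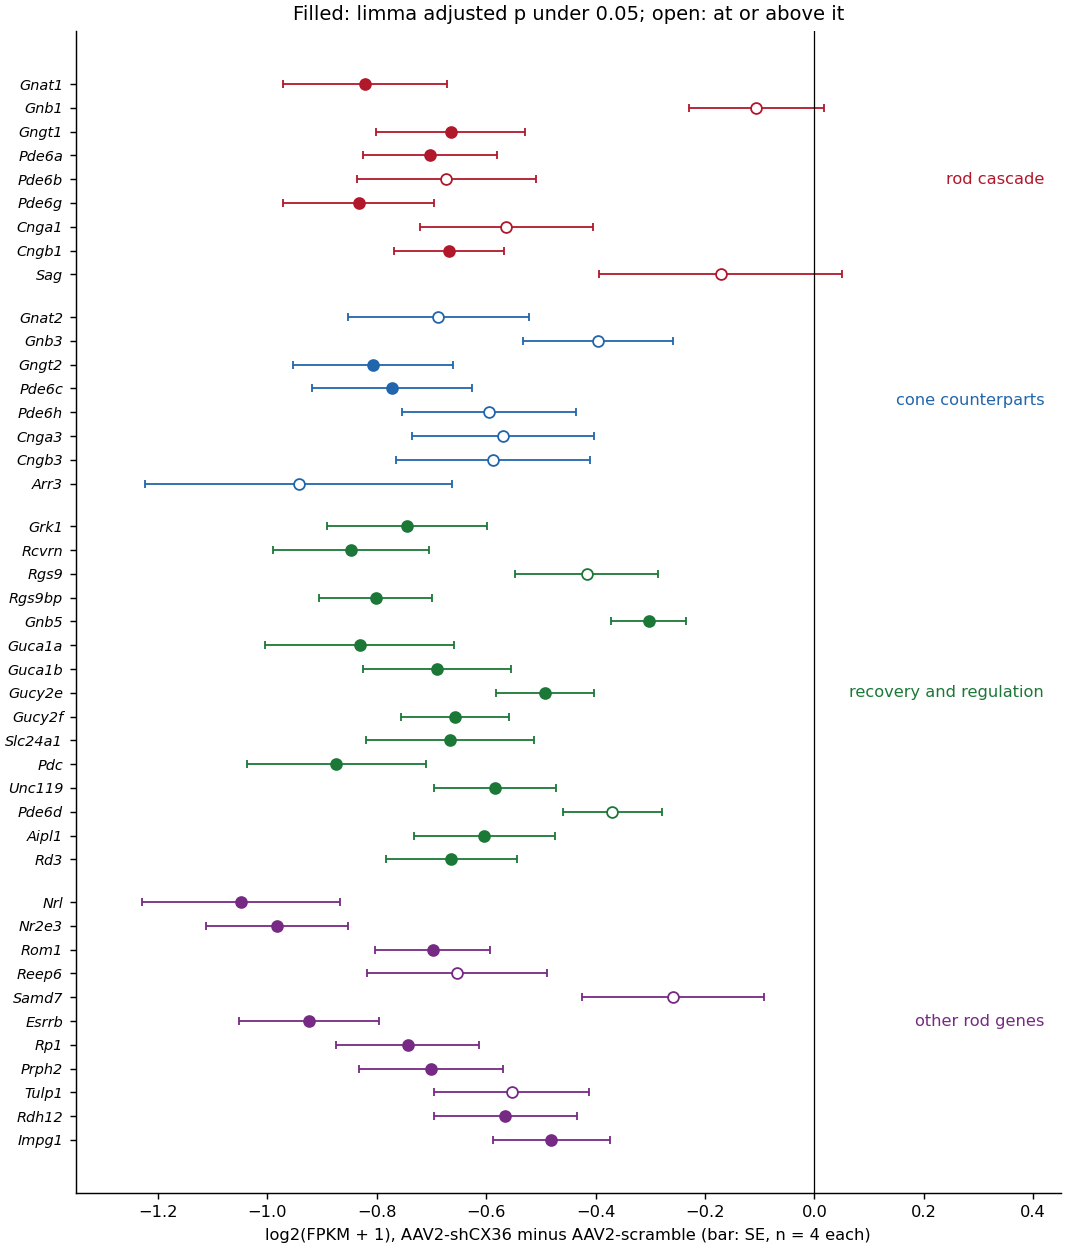
Log2 difference (AAV2-shCX36 minus AAV2-scramble, log2(FPKM + 1) scale) of each rod cascade gene and of the genes of the related lists, with bars for the SE and filled points for called genes. All 9 members lie below 0, with Gnb1 at -0.11 and Sag at -0.17 nearest to it.

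Within a group the members were ranked by FPKM, a level per length. In AAV2-shCX36 the order of means was Gnb1, Gnat1, Sag, Pde6g, Gngt1, Pde6b, Pde6a, Cnga1 and Cngb1. In AAV2-scramble it was Gnat1, Gnb1, Pde6g, Sag, Gngt1, Pde6b, Pde6a, Cnga1 and Cngb1, so the last 5 places were the same. Within single libraries, most neighbours kept that order in 4 of 4 libraries of the group. The exceptions in AAV2-shCX36 were Gnb1 over Gnat1, in 2 of 4 libraries, and Gnat1 over Sag, in 3 of 4. In AAV2-scramble they were Pde6g over Sag and Gngt1 over Pde6b, in 3 of 4 each. Across libraries, the ranges also overlapped between Sag and Pde6g and between Gngt1 and Pde6b in AAV2-shCX36, and between Gnat1 and Gnb1 and between Gnb1 and Pde6g in AAV2-scramble. The 9 members together summed to 1322, 1099.7, 1407 and 1509.8 FPKM in AAV2-shCX36 libraries, against 1544, 1768, 2136 and 2163 FPKM in AAV2-scramble libraries. That was 0.389% to 0.513% of all FPKM in AAV2-shCX36 and 0.533% to 0.740% in AAV2-scramble.

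The same libraries were low or high for many members. AAV2-shCX36 library 2 was the lowest of its group for all 9 members and the lowest of all 8 libraries for 8, the exception being Gnb1. AAV2-scramble library 1 was the lowest of its group for 7 members, and library 4 the highest for 5. Over the 8 libraries, the 21 pairs among the members other than Gnb1 and Sag had Pearson correlations of 0.817 to 0.974. Gnb1 correlated with those 7 members at 0.229 to 0.676, and Sag at 0.229 to 0.641. These values carry the difference between the groups. With the group means removed, the correlation with the scaled mean of the 9 members was 0.721 for Gnb1 and 0.761 for Sag, near the 0.739 of Pde6a. On that measure Cngb1 was the lowest at 0.297, and the other 5 members were at 0.850 (Pde6b) to 0.974 (Gnat1). Gnb1 and Sag were set apart after their values were seen, each member is part of the mean it was compared with, the 8 points share their libraries, and no test is attached.

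The windows before the starts of 4 members are shown to compare Cngb1 and Pde6b with Sag and Gnb1, whose group means hardly differed. The windows, from RefSeq, hold the 250 bases before the annotated start in GRCm38.p6, 5′ to 3′ on the strand of the gene. Windows of 6 of the 9 members were used. Capitals mark 3 motifs searched on both strands, with no overlap between matches. They are TAATCC, the core bound by CRX-type photoreceptor homeodomain factors, TGCTGA, the core of sites of NRL-type factors, and TATAAA.
Cngb1, chr8:95306586-95306835, minus strand: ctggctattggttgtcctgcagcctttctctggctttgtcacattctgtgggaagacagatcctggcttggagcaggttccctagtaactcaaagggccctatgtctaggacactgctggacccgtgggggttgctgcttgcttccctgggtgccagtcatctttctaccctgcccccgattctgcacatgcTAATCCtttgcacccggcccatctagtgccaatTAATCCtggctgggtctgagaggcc
Pde6b, chr5:108388123-108388372, plus strand: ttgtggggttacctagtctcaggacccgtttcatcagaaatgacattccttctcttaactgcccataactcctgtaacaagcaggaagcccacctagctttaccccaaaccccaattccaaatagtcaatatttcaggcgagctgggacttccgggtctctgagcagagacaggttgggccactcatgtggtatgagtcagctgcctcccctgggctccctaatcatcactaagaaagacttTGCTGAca
Sag, chr1:87803430-87803679, plus strand: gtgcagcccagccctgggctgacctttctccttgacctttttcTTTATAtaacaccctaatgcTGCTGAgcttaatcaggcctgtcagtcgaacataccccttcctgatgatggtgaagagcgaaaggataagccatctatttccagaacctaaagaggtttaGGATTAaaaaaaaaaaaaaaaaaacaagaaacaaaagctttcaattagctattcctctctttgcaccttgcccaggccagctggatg
Gnb1, chr4:155491111-155491360, plus strand: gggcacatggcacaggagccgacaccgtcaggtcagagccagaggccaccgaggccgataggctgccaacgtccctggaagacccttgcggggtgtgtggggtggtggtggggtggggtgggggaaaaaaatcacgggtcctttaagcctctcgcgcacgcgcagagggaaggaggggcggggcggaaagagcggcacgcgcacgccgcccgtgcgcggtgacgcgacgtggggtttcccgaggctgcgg

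Cngb1 held TAATCC on its own strand at 58 and 25 bases before the start. Pde6b held TGCTGA at 8 bases before the start. Sag held all 3 motifs, with TGCTGA at 187 bases and, on the opposite strand, TAATCC at 87 bases and TATAAA at 207 bases before the start. Gnb1 held none of these letters in this window. The windows of Cnga1 and Gngt1, which lie in annotated exons and are not shown, held TAATCC at 228 bases and, on the opposite strand, at 44 bases, and Gngt1 also held TATAAA on the opposite strand at 133 bases. Among 32851 windows of the same length, 6.25% held TAATCC, 16.1% TGCTGA and 12.4% TATAAA. Windows of Gnat1, Pde6a and Pde6g were not used, so no letters are given for these called members. A match is a description of letters and not a measured binding site.

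To set the members against other genes made in rods, each was compared with the mean log2(FPKM + 1) of 11 rod genes outside the cascade. Those 11, like the members, were chosen with earlier results of these data known, so the comparison is not independent of them. Most members moved with those genes: the difference relative to them was 0.03 for Gngt1, -0.01 for Pde6a, 0.02 for Pde6b, 0.02 for Cngb1, 0.13 for Cnga1, -0.13 for Gnat1 and -0.14 for Pde6g. Gnb1 stood 0.59 and Sag 0.52 higher relative to the rod genes in AAV2-shCX36 than in AAV2-scramble, without overlap between the groups. Their two-sided exact permutation p was 0.0286 each, the smallest that 70 relabellings allow, and 0.129 after adjustment over the 9 members. So 2 of 9 passed before adjustment and 0 after it. Passing after adjustment needed most of the 9 members at that smallest p, so the 0 cannot show that members moved alike.

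**Figure D3:**
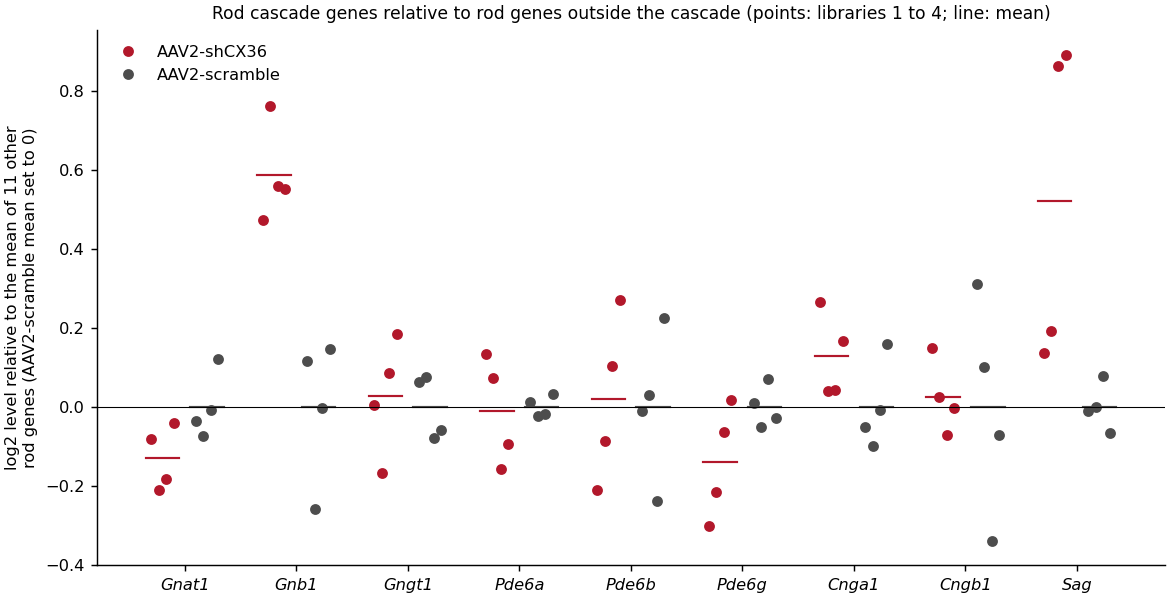
Log2(FPKM + 1) of each member minus the mean of 11 other rod genes in each library, with the AAV2-scramble mean set to 0 and AAV2-shCX36 left of AAV2-scramble. For Gnb1 and Sag all 4 AAV2-shCX36 libraries lie above all 4 AAV2-scramble libraries.

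The other rod genes were themselves lower. Their list was chosen with earlier results of these data known, so its counts are descriptions. Of the 11, 8 were called lower and 0 higher, beside 2.52% and 2.24% of all tested genes. The median log2 difference of the list was -0.70. In 10 every AAV2-shCX36 library lay below every AAV2-scramble library, beside 7.05% of all tested genes. The transcription factor genes of rod identity were among them: Nrl had 41.6, 29.5, 33.2 and 42.0 FPKM in AAV2-shCX36 libraries, against 57.1, 67.1, 86.7 and 99.97 FPKM in AAV2-scramble libraries (log2 difference -1.05, limma adjusted p = 0.0164). Nr2e3, a nuclear receptor that represses cone genes in rods, averaged 19.1 ± 3.27 FPKM in AAV2-shCX36 and 38.7 ± 5.60 FPKM in AAV2-scramble (-0.98, adjusted p = 0.00664). Esrrb, a nuclear receptor needed for rod survival in mice, averaged 10.2 ± 1.06 FPKM in AAV2-shCX36 and 20.4 ± 3.79 FPKM in AAV2-scramble (-0.92, adjusted p = 0.00743). The outer segment disc rim genes Prph2 (-0.70, adjusted p = 0.0226) and Rom1 (-0.70, 0.0108), the axoneme gene Rp1 (-0.74, 0.0181), the retinol dehydrogenase gene Rdh12 (-0.56, 0.0435) and the interphotoreceptor matrix gene Impg1 (-0.48, 0.0392) were also called lower. Reep6, Tulp1 and Samd7 were not called, with log2 differences of -0.65, -0.55 and -0.26. In place of 8, the count was 4, 3 and 4 with library 1, 2 or 3 of AAV2-shCX36 omitted, and 3 with library 3 of AAV2-scramble omitted. Of all tested genes, 0.700%, 0.544%, 0.848% and 0.863% were called lower in those settings, against 2.52% with all 8 libraries.

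Genes that end or tune the light response were mostly lower after AAV2-shCX36. This list too was chosen with earlier results of these data known. Of the 15 tested, 13 were called lower and 0 higher, beside 2.52% and 2.24% of all tested genes. The median log2 difference of the list was -0.66. In 14 every AAV2-shCX36 library lay below every AAV2-scramble library, beside 7.05% of all tested genes. Rcvrn, the calcium sensor recoverin that holds back the pigment kinase, had 199, 141, 178 and 172 FPKM in AAV2-shCX36 libraries, against 242, 324, 367 and 317 FPKM in AAV2-scramble libraries (-0.85, limma adjusted p = 0.0148). The pigment kinase gene Grk1 averaged 74.7 ± 11.8 FPKM in AAV2-shCX36 and 126 ± 20.8 FPKM in AAV2-scramble (-0.74, adjusted p = 0.0256).

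The complex that speeds GTP hydrolysis by transducin is formed by Rgs9, its anchor Rgs9bp and Gnb5. Rgs9bp averaged 33.3 ± 4.11 FPKM in AAV2-shCX36 and 58.6 ± 5.94 FPKM in AAV2-scramble (log2 difference -0.80, limma adjusted p = 0.00589). Gnb5, which shares exon sequence with Gm19531, was also called (-0.30, adjusted p = 0.0416), and Rgs9 was not (-0.42, adjusted p = 0.107). Cyclic GMP is made again by the guanylate cyclases Gucy2e (-0.49, adjusted p = 0.0201) and Gucy2f (-0.66, 0.0108) with their activators Guca1a (-0.83, 0.0314) and Guca1b (-0.69, 0.0258) and the cyclase regulator Rd3 (-0.66, 0.0195), all 5 called lower.

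The calcium exchanger gene Slc24a1 (log2 difference -0.67, limma adjusted p = 0.0434), the transducin beta-gamma partner Pdc (-0.87, 0.0226), the lipid-binding chaperone gene Unc119 (-0.58, 0.0236) and the phosphodiesterase chaperone gene Aipl1 (-0.60, 0.0349) were called lower as well. Pde6d, a carrier of prenylated proteins, was not called (-0.37, adjusted p = 0.0531). Gucy2f, Rcvrn and Rgs9bp were called with each single library left out. In place of 13, the count was 3, 4 and 7 with library 1, 2 or 3 of AAV2-shCX36 omitted, and 7 and 3 with library 2 or 3 of AAV2-scramble omitted. Of all tested genes, 0.700%, 0.544%, 0.848%, 1.42% and 0.863% were called lower in those settings, against 2.52% with all 8 libraries.

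Among G protein beta subunit genes, Gnb2, which is expressed in many cell types and shares exon sequence with Epo, averaged 48.0 ± 1.36 FPKM in AAV2-shCX36 and 45.2 ± 1.42 FPKM in AAV2-scramble. Its groups did not overlap, and it was not called (log2 difference 0.08, limma adjusted p = 0.347). Of the 4 beta subunit genes tested, Gnb5 was the only one called, beside 2.52% of all tested genes called lower. Gnb4 averaged under 1 FPKM and was not tested.

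Cone counterparts of the cascade also had lower means after AAV2-shCX36. This list was also chosen with earlier results of these data known. Of the 8, 2 were called lower and 0 higher, beside 2.52% and 2.24% of all tested genes. The median log2 difference of the list was -0.64. In 5 every AAV2-shCX36 library lay below every AAV2-scramble library, beside 7.05% of all tested genes. Gngt2, the cone transducin gamma gene, averaged 115 ± 23.0 FPKM in AAV2-shCX36 and 199.7 ± 21.998 FPKM in AAV2-scramble (-0.81, limma adjusted p = 0.0199). Pde6c, the cone phosphodiesterase catalytic gene, averaged 128 ± 16.8 FPKM in AAV2-shCX36 and 220.3 ± 42.8 FPKM in AAV2-scramble (-0.77, adjusted p = 0.0226). Gnat2, the cone transducin alpha gene, had a log2 difference of -0.69 and an adjusted p of 0.0503. The log2 differences of the others were -0.60 for Pde6h, -0.57 for Cnga3, -0.59 for Cngb3 and -0.40 for Gnb3. Gngt2 shares exon sequence with Abi3, and Pde6h with Arhgdib. In place of 2, the count was 0 and 1 with library 1 or 2 of AAV2-shCX36 omitted, and 5 and 0 with library 1 or 3 of AAV2-scramble omitted. Of all tested genes, 0.700%, 0.544%, 2.27% and 0.863% were called lower in those settings, against 2.52% with all 8 libraries.

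In 9 rod and cone pairs, the log2 ratio of the rod gene to its cone counterpart was compared between the groups, with Pde6c serving in 2 pairs. Since Gnb1 is also used by many other neurons, its pair is not a contrast of rods with cones alone. None of the 9 pairs passed after adjustment over the pairs, and 2 passed before it. Passing after adjustment needed most pairs at the smallest exact p that 70 relabellings allow, so this cannot show that ratios were unchanged. Gnat1 over Gnat2 was 0.61 ± 0.24 in AAV2-shCX36 and 0.74 ± 0.22 in AAV2-scramble, a difference of -0.13 (two-sided exact permutation p = 0.429). Arrestin gave the widest gap: Arr3, the cone arrestin gene, had 254, 267, 533 and 536 FPKM in AAV2-shCX36 libraries, against 609, 911, 813 and 589 FPKM in AAV2-scramble libraries. It was not called (log2 difference -0.94, limma adjusted p = 0.0956), and, as for Sag, AAV2-shCX36 libraries 1 and 2 were the lowest of all 8. Sag over Arr3 was -0.47 ± 0.20 in AAV2-shCX36 and -1.24 ± 0.30 in AAV2-scramble, a difference of 0.77 without overlap (exact permutation p = 0.0286, adjusted over 9 pairs 0.129).

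Pde6g over Pde6h moved the other way, at -1.15 ± 0.06 in AAV2-shCX36 and -0.91 ± 0.07 in AAV2-scramble (difference -0.24, two-sided exact permutation p = 0.0286, adjusted 0.129). The remaining differences were 0.29 for Gnb1 over Gnb3, 0.14 for Gngt1 over Gngt2, 0.07 for Pde6a over Pde6c, 0.10 for Pde6b over Pde6c, 0.01 for Cnga1 over Cnga3 and -0.08 for Cngb1 over Cngb3. The unadjusted exact p of these 6 was 0.143 or more.

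In FPKM, the cone gene was above its rod counterpart in all 8 libraries in 6 of the 9 pairs. The rod gene was above in all 8 in 2, Gnat1 over Gnat2 and Cngb1 over Cngb3. In those 6 pairs the rod gene had the longer annotated exons, except Pde6g (2317 bases, against 7846 for Pde6h). Sag had 8904 bases, against 2355 for Arr3. The part of gene length in this order was not tested, so it is not an order of transcript numbers. The FPKM ratio of Gnat1 to Gnat2 was 1.28 to 1.90 in AAV2-shCX36 and 1.48 to 2.09 in AAV2-scramble. The ratio of Pde6a to Pde6c was 0.182 to 0.300 in AAV2-shCX36 and 0.187 to 0.28005 in AAV2-scramble. Sag to Arr3 was 0.654 to 0.884 in AAV2-shCX36 and 0.331 to 0.541 in AAV2-scramble. Rods far outnumber cones in the mouse retina, as background.

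The libraries held more than 1 retinal cell type, which bears on the RGC label. RGC markers were high: Thy1 averaged 820.3 ± 23.6 FPKM in AAV2-shCX36 and 628 ± 156 FPKM in AAV2-scramble. The 10 RGC markers summed to 2537, 2734, 2696 and 2658 FPKM in AAV2-shCX36 libraries 1 to 4, against 1992, 1539, 2392 and 2703 FPKM in AAV2-scramble libraries 1 to 4. AAV2-scramble libraries 1 and 2 were thus the lowest, and libraries 3 and 4 were closer to AAV2-shCX36. Of the 10, 0 were called, with a median log2 difference of 0.32. The difference was positive for 9 and negative for 1, Nefh, which averaged 44.0 FPKM in AAV2-shCX36 and 75.1 FPKM in AAV2-scramble (-0.69). Rod, cone, bipolar and glial transcripts stood beside them, so RGC markers were present and other retinal cell types were too. Müller glia markers were lower after AAV2-shCX36, with 4 of 6 called (Rlbp1, Glul, Aqp4 and Kcnj10), beside 2.52% of all tested genes called lower. Their median log2 difference was -1.03, with sums of 204 to 345 FPKM in AAV2-shCX36 and 439.5 to 720.4 FPKM in AAV2-scramble.

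**Figure D4:**
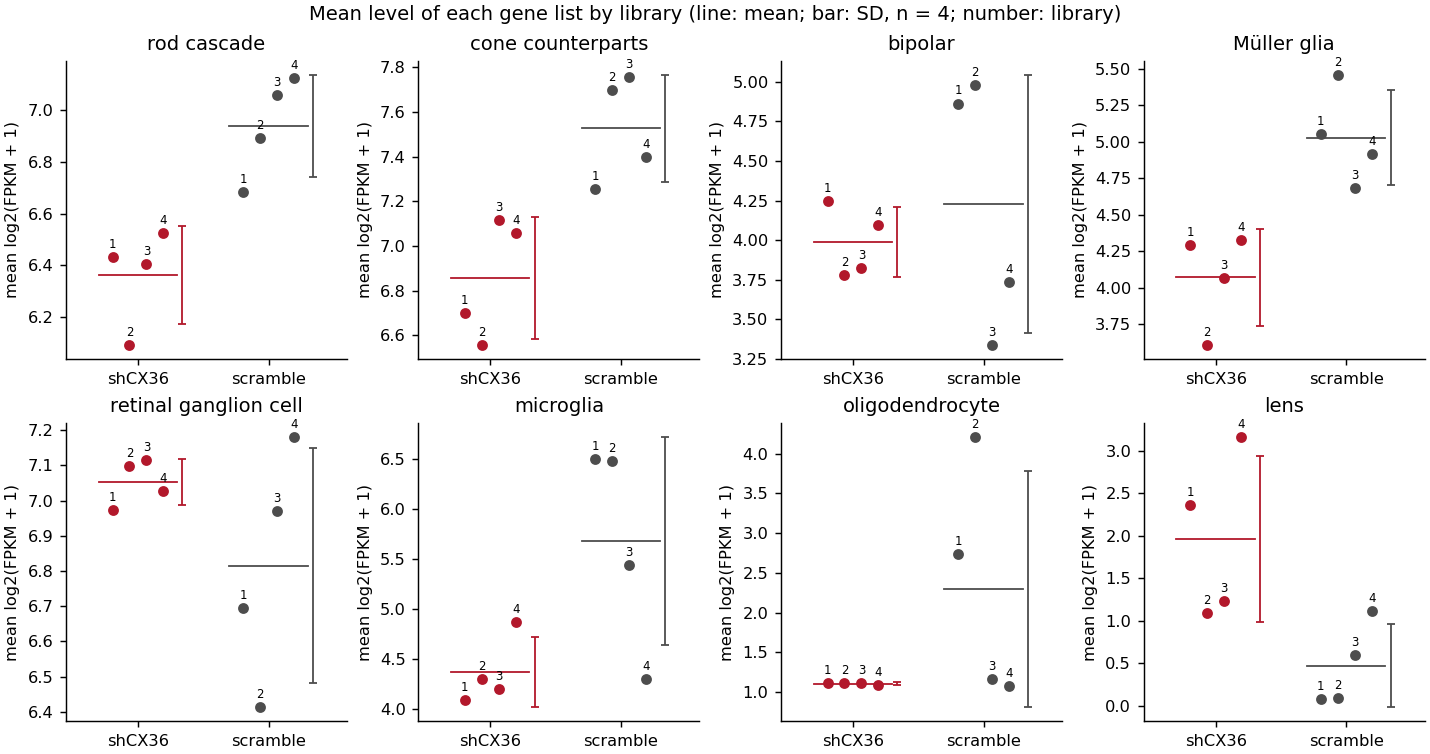
Mean log2(FPKM + 1) of 8 gene lists in each library, AAV2-shCX36 left of AAV2-scramble, with lines for group means and bars for the SD (n = 4). Rod, cone and Müller glia lists sit lower in AAV2-shCX36, while microglia, oligodendrocyte and bipolar lists are highest in AAV2-scramble libraries 1 and 2.

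Several libraries stood apart on markers of other cells. AAV2-scramble libraries 1 and 2 held the highest microglia sums (165 to 265 FPKM in AAV2-shCX36, against 151 to 689 FPKM in AAV2-scramble, 1 of 6 called, P2ry12), bipolar sums (83.1 to 123 FPKM in AAV2-shCX36, against 58.5 to 247 FPKM in AAV2-scramble, 0 of 6 called) and oligodendrocyte sums (10.6 to 11.95 FPKM in AAV2-shCX36, against 11.2 to 160.2 FPKM in AAV2-scramble, 0 of 5 called). The myelin gene Mog was at 0 in all AAV2-shCX36 libraries, and at 1.48, 7.67, 0.015 and 0 FPKM in AAV2-scramble libraries 1 to 4. Lens markers were highest in AAV2-shCX36 libraries 4 and 1 (0 of 3 tested markers called). Their sums were 11.7 to 276 FPKM in AAV2-shCX36 and 0.372 to 13.8 FPKM in AAV2-scramble. The lens gene Lim2 was at 0 in all AAV2-scramble libraries, and at 0.060, 0, 0 and 0.915 FPKM in AAV2-shCX36 libraries 1 to 4. The pigment gene Tyr was at 0 in all AAV2-scramble libraries and in 3 AAV2-shCX36 libraries. Over all tested genes, 2.52% were called lower and 2.24% higher. Endothelial markers had 0 of 3 called, amacrine markers 1 higher (Pax6) and 1 lower (Tfap2b) of 4, and horizontal markers 1 lower (Calb1) of 3. The part of these markers in the rod result was not tested.

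Omitting pairs of libraries moved the members' values and the calls over all genes, so each count is given with the share of all tested genes called lower in the same setting. Without AAV2-scramble libraries 1 and 2, 8 of 9 members were called lower, all but Sag, beside 3.02% of all genes. The median log2 difference of the members was then -0.80, with Gnat1 at -1.03 and Cngb1 at -0.62. Without AAV2-scramble libraries 3 and 4, 5 of 9 were called beside 14.8% of all genes, with a median of -0.54 and Gnat1 at -0.61. Without AAV2-shCX36 libraries 1 and 4, the highest in lens markers, 1 of 9 was called (Cngb1) beside 0.233% of all genes. The differences were larger there than with all 8 libraries, at a median of -0.81, with Gnat1 at -0.98, Pde6g at -0.92, Pde6a at -0.82 and Gngt1 at -0.82. With all 8 libraries in, 5 of 9 were called beside 2.52% of all genes. That count was 3, 3 and 2 with library 1, 2 or 3 of AAV2-shCX36 omitted, beside 0.700%, 0.544% and 0.848% of all genes. With library 3 of AAV2-scramble omitted it was 2, beside 0.863%.

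With unnamed gene models passed over, the tested genes whose pattern over the 8 libraries was most like the scaled mean of the 9 members were Rdh12, Elovl4, Pcbp2, Prph2, Nrl, Guca1b, Leo1 and Kcnv2. Their Pearson correlations were 0.986, 0.984, 0.982, 0.981, 0.980, 0.980, 0.977 and 0.973, and with the group means removed they were 0.951, 0.943, 0.944, 0.938, 0.938, 0.930, 0.924 and 0.917. Elovl4, a fatty acid elongase gene of photoreceptors, averaged 47.2 ± 3.26 FPKM in AAV2-shCX36 and 60.7 ± 6.28 FPKM in AAV2-scramble (log2 difference -0.35, limma adjusted p = 0.0485). Kcnv2, a potassium channel subunit gene of photoreceptors, averaged 17.2 ± 2.37 FPKM in AAV2-shCX36 and 30.01 ± 4.27 FPKM in AAV2-scramble (-0.76, adjusted p = 0.0142). Pcbp2, an RNA-binding protein gene of many cell types, was not called (-0.19, adjusted p = 0.122), and Leo1, a subunit gene of a transcription elongation complex, was (-0.28, adjusted p = 0.0471). These correlations describe 8 points that share their libraries and carry no p-value.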

How the data were processed

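Per the labels, mouse total RNA came from a QIAGEN micro-scale RNeasy extraction, and an Illumina NovaSeq read both ends over 150 bp. The submitters' processing notes name fastp, HISAT2, HTSeq, R 3.2.0, DESeq2 and the builds GRCm38 and mm10. No source used here gives strand use in counting. The authors deposited FPKM values for 24860 genes in 8 libraries, with 0 unmatched value columns, and no counts, so no count model was used.

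The main test was limma 3.58.1 (R 4.3.3; lmFit, eBayes with trend) on log2(FPKM + 1), a pseudocount of 1, for 12858 genes whose mean reached 1 FPKM, with Benjamini-Hochberg adjustment over all of them. FPKM means are given with the SD over 4 libraries. Rod to cone ratios and values relative to other rod genes were tested with two-sided exact permutation over 70 relabellings, written in Python 3.11.15 with NumPy 2.4.6. Positions came from GENCODE vM21, and no exon of a member overlaps another gene. Members and lists were chosen with earlier results of these data known. Named genes were the members, their cone counterparts, every called gene of the recovery, rod and beta subunit lists (and members of those lists that were not called, chosen after their values were seen), Gjd2, and the 8 genes most like the members' mean. Unnamed gene models were passed over in choosing those 8. Other marker genes were named after their values were seen. The fit was tested on simulated data. Alternatives were other pseudocounts, scalings, filters and variance models, a replicate block, and libraries left out.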

Additional observations from a re-analysis of the deposited data

Results flagged for a closer look

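In 3 of 118 groups of 4 libraries, 1 library lay far from the other 3 by Dixon's ratio, where chance flags about 1 in 20 groups. Leo1 was at 3.82 on the log2(FPKM + 1) scale (13.1 FPKM) in AAV2-shCX36 library 2, against 4.00 to 4.02 in the other AAV2-shCX36 libraries. Kcnv2 was at 3.88 (13.7 FPKM) in the same library, against 4.26 to 4.30. Gngt1 was at 6.496 (89.3 FPKM) in AAV2-scramble library 1, against 6.80 to 6.84 in the other AAV2-scramble libraries.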

How the results depend on the processing

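Over 22 alternatives, a named gene lost its call in 181 combinations of gene and setting, gained one in 36 and stayed on its side of the threshold in 836. The sign of a log2 difference turned in 2. Gnb1 was 0.12 without AAV2-scramble libraries 3 and 4, and Sag ranged from -0.32 to 0.0064 with single libraries left out. With no filter on low values, which raises the number of genes tested, the counts called lower were 3 rod cascade genes, 0 cone counterparts, 4 recovery and regulation genes and 4 other rod genes. That setting called 0.539% of all tested genes lower, against 2.52% in the main fit. Without AAV2-scramble libraries 1 and 2 the counts were 8 rod cascade and 5 cone genes, beside 3.02% of all genes. Without AAV2-shCX36 libraries 1 and 4 they were 1, 0, 1 and 2 over the 4 lists in that order, beside 0.233%. Quantile normalization gave 4 cone genes, beside 3.03%. With single libraries left out, the counts ranged from 2 to 7, from 0 to 5, from 3 to 14 and from 3 to 10. The share of all genes called lower then ranged from 0.544% to 4.58%. Over all genes, 324 lower and 288 higher calls ranged from 70 to 589 and from 101 to 573 when single libraries were left out. They were 134 and 177 with no filter, 388 and 554 without AAV2-scramble libraries 1 and 2, 1905 and 1536 without AAV2-scramble libraries 3 and 4, and 30 and 76 without AAV2-shCX36 libraries 1 and 4. Apart from the fewer libraries or the added genes, the cause was not tested.

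The labels do not say whether equal replicate numbers pair the libraries. Same-numbered libraries deviated from their group means with correlations of 0.128, -0.302, 0.226 and -0.269, and not every library correlated best with its own number. These correlations cannot decide whether the libraries were paired, since other differences between libraries enter them too. A fit with the replicate number as a block called 3 rod cascade, 1 cone, 4 recovery and regulation and 4 other rod genes lower. Over all genes it called 57 lower, or 0.443% of those tested, and 107 higher. With that block Gjd2 was at -0.70 with a sign-flip p of 0.125, the smallest that 4 pairs allow. Gjd2 was -0.19 (exact permutation p = 0.133) without AAV2-scramble libraries 1 and 2, and -0.88 to -0.51 with single libraries left out.

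Of the rod to cone ratios and the values relative to other rod genes, 0 passed adjustment under any alternative. Without AAV2-scramble libraries 1 and 2, and with the replicate block, the smallest possible unadjusted p was above 0.05, so none could pass. In the other settings, most items adjusted together had to reach the smallest possible p. These counts of 0 therefore cannot show that the ratios were unchanged. Without AAV2-scramble libraries 1 and 2, the ratio difference was -0.11 for Gnb1 over Gnb3, -0.044 for Pde6a over Pde6c, -0.12 for Cnga1 over Cnga3 and 0.056 for Cngb1 over Cngb3, each of opposite sign. With single libraries left out, differences near 0 crossed it. They ran from -0.057 to 0.18 for Pde6a over Pde6c, -0.012 to 0.28 for Pde6b over Pde6c, -0.12 to 0.13 for Cnga1 over Cnga3 and -0.23 to 0.046 for Cngb1 over Cngb3. Relative to other rod genes they ran from -0.089 to 0.13 for Cngb1, -0.026 to 0.092 for Gngt1, -0.059 to 0.037 for Pde6a and -0.065 to 0.096 for Pde6b.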
